A study of Drosophila melanogaster with 3 samples.

Results

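Peaks of Pipsqueak (Psq) binding that lay outside the authors' final list and yet appeared in every replicate were examined in whole fruit fly larvae. There were 1316 of them among the 29963 nuclear peaks that the authors called on all replicates together (the pooled list). They are called members here and were chosen by the positions of called summits and, through the optimal list, by score. A member had its summit more than 500 bp from every summit of the authors' optimal list and had a summit within 100 bp in the full list of each of the 3 replicates. The optimal list is the set of peaks that passed the authors' threshold on the irreproducible discovery rate (IDR), a measure of how well the ranking of peaks repeats between replicates. Chromatin immunoprecipitation with sequencing (ChIP-seq) was carried out on larvae of the third instar, at the wandering stage, of a *Drosophila melanogaster* line with a stable transgene that adds green fluorescent protein to the C-terminal end of psq. Male and female larvae were pooled, all tissues were mixed, and chromatin was sonicated and precipitated with an antibody to that protein, per the labels. The 3 biological replicates form 1 group, and their lists were all called against the same control alignment, so support in the replicates shares that control. No larvae without the tag were analysed here, and read depth is unknown because the lists hold no read counts.

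Psq carries a BTB domain, through which such nuclear proteins associate with each other, and DNA-binding domains of the Psq type that recognise GA repeats. It shares GA-rich target sites with GAGA factor, the product of Trl, and both have been linked to Polycomb and trithorax group regulation of developmental genes. Sites are therefore described first by their GA words, then by their strength, position and genes.

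The DNA at the summits ranged from long GA runs to windows with none. The sequences below are the pooled summit with 50 bases to either side, read on the plus strand of dm6 from the NCBI RefSeq copy of the assembly, in lower case with each GAGAG or its reverse complement CTCTC in capitals. Of the 15 members with the highest scores over the replicates, 10 met the limits for printing given below. Those at aop, lncRNA:CR45404, lncRNA:CR43963 and lncRNA:CR13130 show no such word and are not printed. The split among printed sequences is therefore not a share. The first 6 are the others of these 10, and strong members occur among them with and without the word. They lie at chrX:19878667-19878767 (an intron of Hers), chr2L:17750063-17750163 (an intron of CadN), chr2L:12013427-12013527 (the promoter of lncRNA:CR44588), chr3R:29279974-29280074 (intergenic, nearest to lncRNA:CR45568), chrX:4449358-4449458 (an intron of bi) and chr3R:26040046-26040146 (the promoter of E(spl)m8-HLH). The next are the promoters of ac (chrX:369908-370008) and Rpn11 (chr2L:5059768-5059868), which had a member and no optimal peak. The last, in an intron of ftz-f1 (chr3L:18792963-18793063), held the most GAGAG of any window considered for printing and was picked for that after its sequence was seen.
Hers: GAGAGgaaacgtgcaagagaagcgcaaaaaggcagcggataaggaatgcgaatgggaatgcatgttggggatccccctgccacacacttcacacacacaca
CadN: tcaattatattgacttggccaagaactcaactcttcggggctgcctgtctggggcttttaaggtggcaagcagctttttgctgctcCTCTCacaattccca
lncRNA:CR44588: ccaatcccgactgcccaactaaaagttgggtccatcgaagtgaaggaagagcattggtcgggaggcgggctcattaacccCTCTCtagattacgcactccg
lncRNA:CR45568: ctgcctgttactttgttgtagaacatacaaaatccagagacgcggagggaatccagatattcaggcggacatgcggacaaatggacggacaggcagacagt
bi: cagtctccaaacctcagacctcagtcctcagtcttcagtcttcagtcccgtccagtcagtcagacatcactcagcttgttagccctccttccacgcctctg
E(spl)m8-HLH: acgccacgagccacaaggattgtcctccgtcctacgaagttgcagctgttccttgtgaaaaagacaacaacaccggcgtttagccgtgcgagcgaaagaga
ac: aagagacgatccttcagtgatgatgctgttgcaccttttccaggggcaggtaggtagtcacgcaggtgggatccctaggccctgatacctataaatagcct
Rpn11: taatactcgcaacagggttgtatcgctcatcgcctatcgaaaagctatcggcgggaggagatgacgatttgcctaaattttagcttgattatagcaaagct
ftz-f1: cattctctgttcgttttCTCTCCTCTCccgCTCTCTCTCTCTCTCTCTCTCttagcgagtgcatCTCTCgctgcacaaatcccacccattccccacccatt

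GAGAG lay within 100 bp of the pooled summit in 425 of the 1316 members (32.3%, 95% Wilson interval 29.8 to 34.9). The unsupported peaks, the 16009 pooled peaks equally far from the optimal list that lacked a summit in at least 1 replicate, held it in 25.6% (24.9 to 26.2). The difference was 6.74 percentage points, with a Newcombe interval of 4.18 to 9.40. Among the 10105 optimal nuclear peaks the share was 45.3% (44.3 to 46.2), and in the 1010 lowest-scoring of them (the weakest optimal peaks) it was 34.1% (31.2 to 37.0). Cutting all arms into windows of the same length gave 21.5%. Windows centred 1000 bp to either side gave 25% for members, 22.8% for unsupported peaks and 24.9% for optimal peaks. Members were thus above unsupported peaks, below the optimal list as a whole, and not told apart from its weakest peaks, at a difference of −1.77 points (−5.64 to 2.08). Intervals cover counting error only, and peaks are not independent replicates. The design has 1 group of 3 replicates, in which a 2-sided sign-flip permutation test cannot go below 0.25, so no p is given.

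The word was also counted at the summits called in single replicates. GAGAG lay within 100 bp of a member's own summit in 33.3% of cases in replicate 1, 30.4% in replicate 2 and 31.5% in replicate 3 (mean 31.7% ± 1.45, SD, n = 3). The 7058 optimal peaks with a summit in all 3 replicates had 47.0%, 47.5% and 47.9% (47.4% ± 0.469, SD, n = 3). All 3 values of the members lay below all 3 of the optimal peaks. In both sets the 3 values come from the same regions, with each summit within 100 bp of the pooled summit. Their windows overlap, so the values are not independent and the SD covers shifts of the summit between lists. Counted by position, GAGAG or CTCTC reached 3.92 per kb and peak in the 50 bp just right of the member summits and 3.75 in the 50 bp just left of them. Beyond 100 bp the members ranged from 1.47 to 2.31 per kb and peak. The highest value was 2.31 around unsupported summits and 6.44 around optimal summits.

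**Figure D1:**
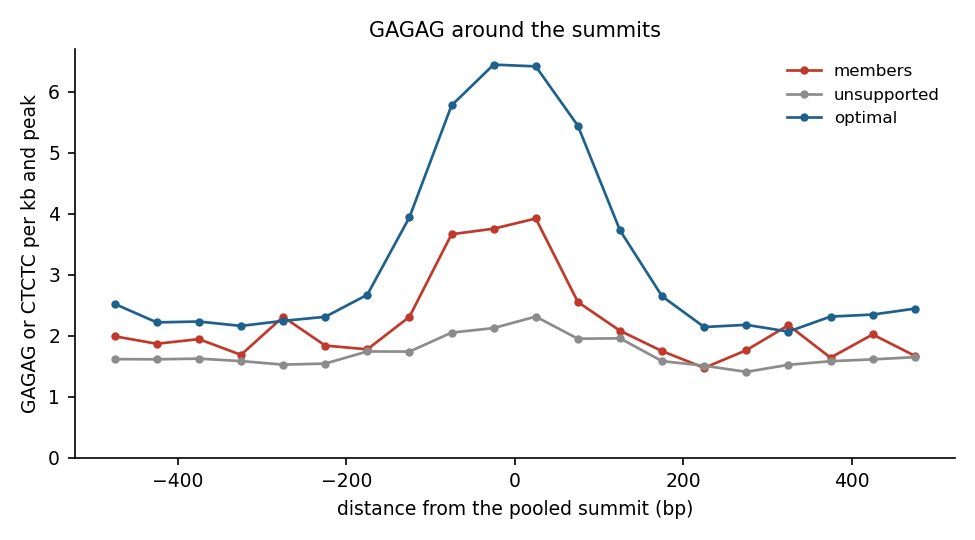
GAGAG or CTCTC per kb and peak (y axis) in bins of 50 bp against distance from the pooled summit in bp (x axis), for members, unsupported peaks and optimal peaks. Members reach 3.92 at the summit, between the maxima of unsupported (2.31) and optimal peaks (6.44).

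GA content varied widely among members. On average a member's window held 0.688 GAGAG, against 0.416 in unsupported and 1.19 in optimal peaks, and 13.8% of members held 2 or more, against 7.28% and 24.3%. The most in any member was 22. The longer word GAGAGAGA was in 4.18% of members (3.23 to 5.40), 2.00% of unsupported peaks (1.79 to 2.23) and 8.65% of optimal peaks. By position, GAGAG was in 33.9% of intronic members (30.3 to 37.7) against 26.2% of intronic unsupported peaks (25.2 to 27.1), and in 32.1% of intergenic members (26.9 to 37.9) against 24.9% (23.4 to 26.5). In promoters the intervals overlapped, with 29.8% of members (24.8 to 35.3) and 26.9% of unsupported peaks (25.2 to 28.6). In coding sequence they overlapped too, with 22.6% of members (13.5 to 35.5) and 21.2% of unsupported peaks (19.3 to 23.2). The 27 members in 5′ UTRs held it in 13 cases, or 48.1% (30.7 to 66.0). In 5′ UTRs it was in 29.5% of unsupported peaks (23.7 to 36.0), so these intervals overlapped too, and in 64.1% of optimal peaks.

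A list of 10 further short words was counted in the same windows on both strands. GGTCACAC was in 26 members (1.98%, 1.35 to 2.88), in 0.593% of unsupported peaks (0.486 to 0.725) and in 2.65% of optimal peaks. TATCGATA, the palindrome known as the core of the DRE element of DREF, was in 22 members (1.67%, 1.11 to 2.52), in 0.725% of unsupported peaks (0.604 to 0.868) and in 2.89% of optimal peaks. Both words lay almost only in promoters, which held 22 of the 26 members with GGTCACAC and 21 of the 22 with TATCGATA. In promoters alone, GGTCACAC was in 7.53% of members, 2.66% of unsupported and 5.54% of optimal peaks. For TATCGATA these shares were 7.19%, 3.17% and 6.12%, all without matching by score. The repeat CACACACA was in 10.03% of members (8.52 to 11.8), 7.80% of unsupported and 14.7% of optimal peaks, against 4.09% of the genome's windows. CGATA, part of TATCGATA, was in 24.7% of members and 22.3% of unsupported peaks, a difference of 2.40 points (0.0498 to 4.88). The interval of the difference between members and unsupported peaks included 0 for AACCGGTT, for the A run AAAAAAAA, for GCCAT, known from Pho sites, for the E-box CACGTG and for CAGGTAG, known from Zelda sites. The median GC content was 47.3% in members, 45.8% in unsupported and 48.3% in optimal windows. Base composition differed between the sets in this way, and its part in the word counts was not tested.

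Members were weak peaks, which follows from how they were chosen. Score is the authors' own value per peak, and it is used here to describe and rank peaks. The optimal list is the 10138 highest-scoring pooled peaks, with a lowest score of 90.29. The pooled scores of members ran from 11.73 to 90.24 with a median of 64.13, and their pooled ranks from 10109 to 29256. The unsupported peaks scored 10.69 to 90.27 with a median of 28.78. The members' −log10 q values, also the authors', ran from 0.10 to 4.32 with a median of 2.68. Some members are thus weak even by the caller's own measure, and others lie right below the optimal list.

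To set replicates side by side, scores were expressed relative to the median of the 10138 highest-scoring peaks in the same replicate (relative score). The median relative score of members was 0.264 in replicate 1, 0.255 in replicate 2 and 0.2498 in replicate 3. It was 0.451, 0.443 and 0.426 in the weakest optimal peaks and 1.03, 1.01 and 1.05 over the whole optimal list, each over peaks with a summit in that replicate. The middle of the distribution hardly differed between replicates, but single members did, with a median coefficient of variation over the 3 replicates of 48.0%, against 31.6% in optimal peaks with a summit in all 3. Of the members, 275 (20.9%) were among the 10138 highest-scoring peaks of replicate 1, 225 (17.1%) of replicate 2 and 277 (21.0%) of replicate 3. No replicate's top set held 731 of the members (55.6%), whereas 420 were in 1 of the sets, 138 in 2 and 27 in all 3. GAGAG was in 29.7% (26.5 to 33.1) of the members in no top set, 32.6% (28.3 to 37.2) of those in 1, 43.5% (35.5 to 51.8) of those in 2 and 40.7% (24.5 to 59.3) of those in all 3. The median pooled scores of these groups rose too, at 55.06, 72.07, 77.48 and 81.52. The part of score in these shares was not tested. Replicate summits lay a median of 32, 27 and 33 bp from a member's pooled summit in replicates 1, 2 and 3, against 18, 14 and 18 bp for optimal peaks.

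**Figure D2:**
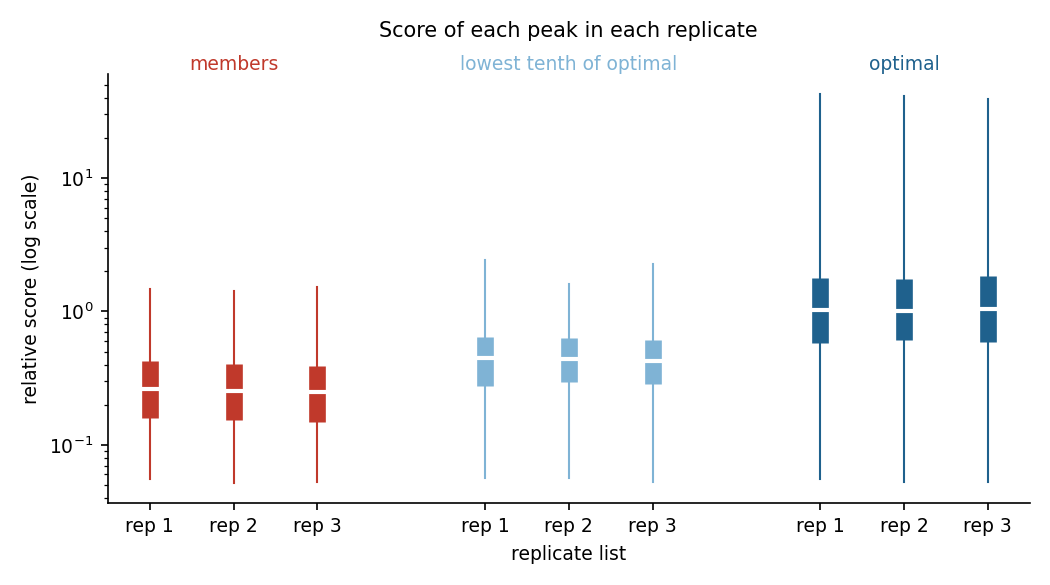
Relative score on a log axis (y axis) in the list of each replicate (x axis), for members, the 1010 lowest-scoring optimal peaks and the whole optimal list. Thick bars are quartiles, white marks medians and thin lines the full range, and the member medians of 0.264, 0.255 and 0.2498 lie below those of both optimal sets.

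How far the replicates supported each other was described for the 17325 pooled peaks more than 500 bp from an optimal summit. A summit lay within 100 bp in all 3 replicates for 1316 of them (7.60%), in 2 replicates for 4448 (25.7%), in 1 for 7195 (41.5%) and in none for 4366 (25.2%). Between 3.64% and 4.24% of all bases of the arms lie within 100 bp of a summit of any given replicate, and the pooled list was built from the same reads as the replicates. When the other replicates both had a summit, replicate 1 had one in 45.2% of peaks, replicate 2 in 53.7% and replicate 3 in 43.5% (47.4% ± 5.48, SD, n = 3). When neither of the others had one, the shares were 32.9%, 41.6% and 30.7% (35.1% ± 5.77). Support in 1 replicate was thus higher, in each of the 3, where the others supported the peak. The peaks with support in all 3 are the members themselves. These shares therefore describe the calls that the rule used and are no test of the members.

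The relation was weaker when peaks were split at a pooled score of 60, and turned round in finer score bins. Among peaks with a pooled score of 60 and over, replicate 1 had a summit in 59.4% of those supported by both others and in 63.7% of those supported by neither. For replicate 2 these shares were 69.9% and 68.6%, and for replicate 3 they were 58.4% and 62.0%. Among peaks scoring under 60 the shares were 34.5% and 31.1% in replicate 1, 41.3% and 40.04% in replicate 2, and 32.7% and 28.9% in replicate 3. Averaged over the replicates, the shares were 62.5% ± 6.37 and 64.8% ± 3.42 at 60 and over, and 36.1% ± 4.56 and 33.4% ± 5.89 under 60 (SD, n = 3). The gap between peaks with support in both other replicates and in neither was 12.3 ± 0.345 points over all scores, −2.22 ± 3.07 points at 60 and over and 2.79 ± 1.34 points under 60 (SD over replicates, n = 3). Under 60 it was positive in each replicate, and at 60 and over it was negative in replicates 1 and 3. Scores still vary within these ranges, so 8 score bins were also used, mostly 10 wide, with the shares weighted by the number of peaks supported by both others in each bin. The gap was then −7.21 points in replicate 1, −6.09 in replicate 2 and −6.52 in replicate 3 (−6.61 ± 0.563, SD, n = 3), so at closely matched pooled scores a summit was less frequent where the others had one. The pooled score includes the reads of the replicate that was left out, and what that adds to these shares was not tested.

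**Figure D3:**
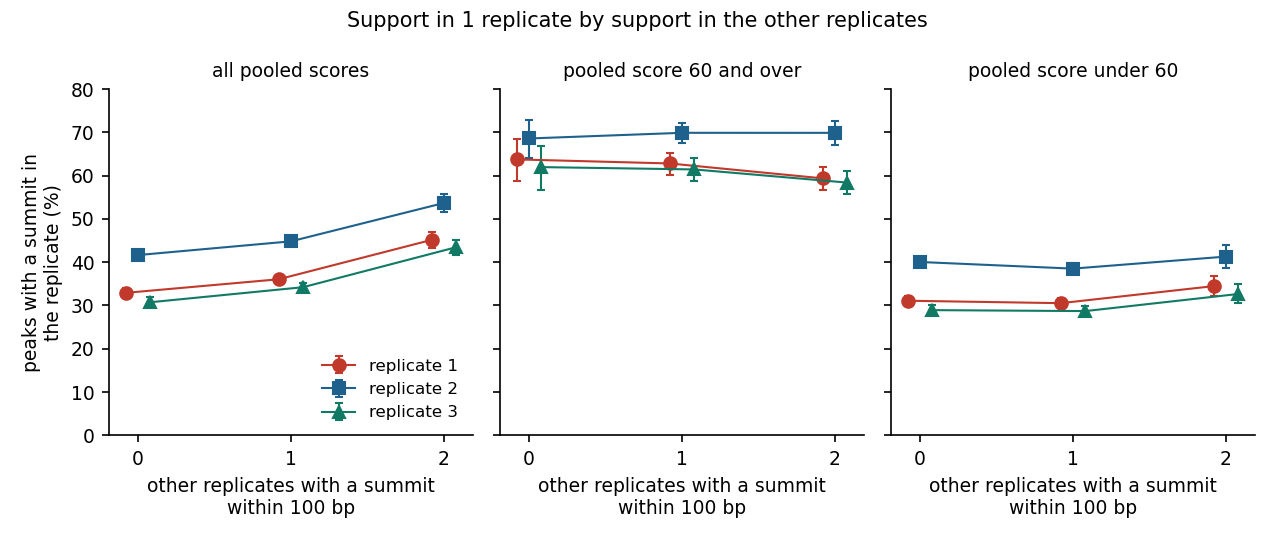
Share of peaks over 500 bp from the optimal list with a summit in 1 replicate (y axis, percent, with 95% Wilson intervals) against the number of other replicates with a summit (x axis), for all peaks and for pooled scores of 60 and over and under 60. The lines climb over all scores, from a mean of 35.1% to 47.4%, and change less within the 2 score ranges. The calls shown are those that the rule used.

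Since members scored higher than unsupported peaks, both were also compared by score. At scores of 60 and over GAGAG was in 34.8% of members and 31.1% of unsupported peaks, a difference of 3.66 points with an interval from −0.215 to 7.63. Under 60 it was in 29.1% of members and 24.7% of unsupported peaks, a difference of 4.44 points (0.797 to 8.35), although unsupported peaks still scored lower there. Comparing within the 8 score bins, weighted by the members in each, left a difference of 3.21 points (0.405 to 6.02), with members higher in 7 of the 8 bins. GGTCACAC differed by 0.862 points in this comparison (0.0474 to 1.68), and TATCGATA by 0.144 points (−0.646 to 0.934).

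Over 20 features compared, the words, the position classes, repeats and the X chromosome, 10 had an interval of the difference without 0 over all scores, 8 when both sets scored under 60 and 2 when both scored 60 and over. Those 2 were 5′ UTRs, with 2.29% of members against 1.26% of unsupported peaks, and the X chromosome, with 22.2% against 18.4%. Within the 8 bins the interval included 0 for both, at 0.728 points for 5′ UTRs (−0.0953 to 1.55) and 2.41 points for X (−0.00975 to 4.82). Against the weakest optimal peaks, members scoring 60 and over held GAGAG 0.712 points more often, with an interval from −3.76 to 5.23.

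**Figure D4:**
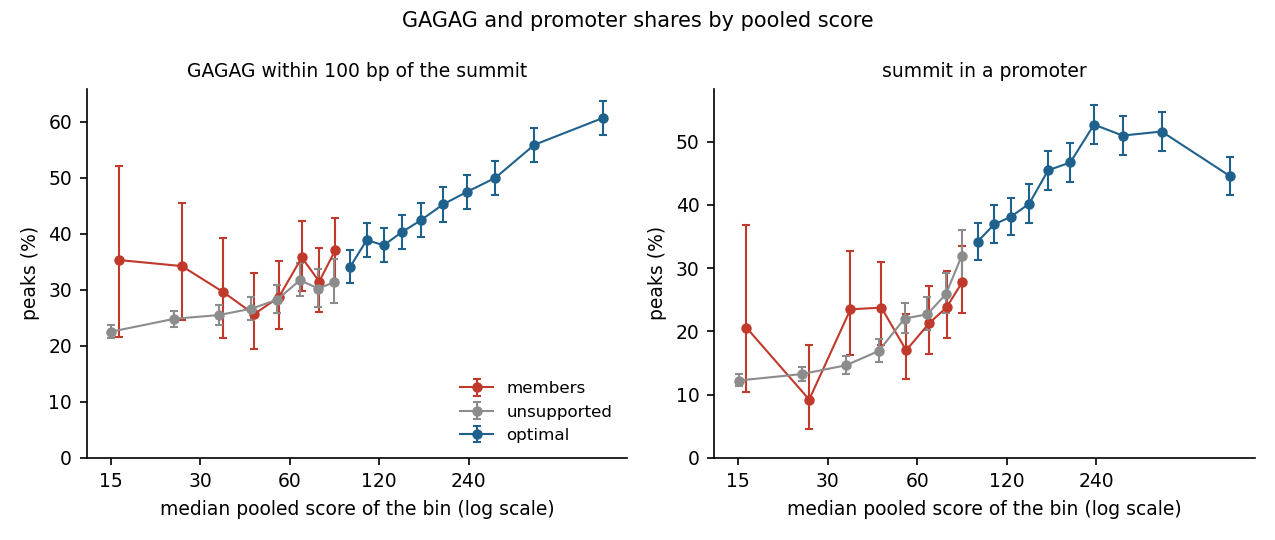
Share of peaks with GAGAG within 100 bp (left) and with the summit in a promoter (right), in percent with 95% Wilson intervals, against the median pooled score of the bin (log axis), for members, unsupported peaks and optimal peaks. Members have the higher GAGAG share in 7 of 8 bins and the higher promoter share in 3 of 8, with wide intervals, and the optimal peaks continue upward, to 60.6% with GAGAG in the highest-scoring bin.

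Introns were the largest class among members, and promoters held fewer members than optimal peaks. Introns held 629 members (47.8%, 45.1 to 50.5), against 48.1% of unsupported and 38.4% of optimal summits, and 39.5% of the genome's windows. Promoters, taken as 500 bp to either side of a transcription start site (TSS), held 292 members (22.2%, 20.03 to 24.5), against 16.0% of unsupported peaks (15.4 to 16.6), 34.2% of the weakest optimal peaks (31.3 to 37.1), 44.1% of all optimal peaks and 13.6% of windows. Intergenic DNA held 20.8% of members, 18.8% of unsupported and 13.02% of optimal peaks, and 27.1% of windows. Coding sequence held 53 members (4.03%, 3.09 to 5.23), against 10.1% of unsupported peaks (9.68 to 10.6), 0.910% of optimal peaks and 13.8% of windows. Taken at each replicate's own summit, 295 members (22.4%) lay in a promoter in each replicate counted singly, though not all were the same members. Coding sequence held 3.88% ± 0.201 (SD, n = 3), where the SD covers shifts of the summit at the same regions.

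The promoter gap between members and unsupported peaks changed with the score. It was 6.21 points over all scores (3.97 to 8.60) and 4.80 points under 60 (1.73 to 8.27). At 60 and over it was −1.46 points (−4.96 to 2.22), with 24.5% of members and 26.0% of unsupported peaks in promoters. Within the 8 score bins, weighted by the members in each, it was −0.785 points (−3.31 to 1.74). The coding gap was −6.11 points over all scores, −5.97 under 60 (−7.61 to −3.78) and −0.452 at 60 and over (−1.79 to 1.21). Within the bins it was −1.60 points (−2.78 to −0.419), with members lower in each of the 8.

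The difference in promoters from the weakest optimal peaks was −12.0 points (−15.7 to −8.29), and −9.63 points (−13.8 to −5.32) for members scoring 60 and over. The rule itself bears on this difference, since it drops peaks within 500 bp of an optimal summit. Of the 2533 peaks so dropped, 43.4% lay in promoters, and a limit of 250 bp put 27.7% of members there. Optimal peaks face no such limit.

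**Figure D5:**
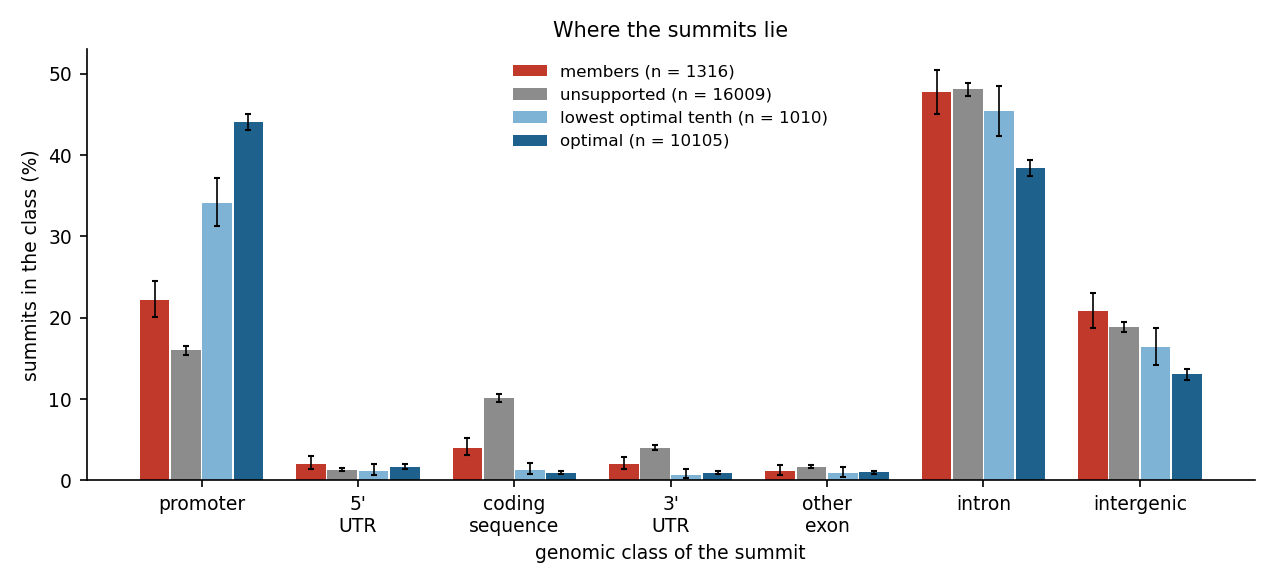
Share of summits (y axis, percent, with 95% Wilson intervals) in each genomic class (x axis) for members, unsupported peaks, the 1010 lowest-scoring optimal peaks and all optimal peaks. Promoters hold 22.2% of members and 44.1% of optimal peaks, and introns hold 47.8% and 38.4%.

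Distance to start sites followed the same order. The median distance to the nearest TSS was 2090 bp in members, 2344 bp in unsupported and 689 bp in optimal peaks, and 11.9% of members, 5.65% of unsupported and 28.1% of optimal peaks lay within 100 bp of one. At scores of 60 and over 13.7% of members and 13.4% of unsupported peaks did so. Of the 292 promoter members, 153 (52.4%) lay upstream of the nearest start, against 58.9% of optimal promoter peaks. The nearest start belonged to a protein-coding gene for 230 promoter members, to a non-coding RNA gene for 49, to a tRNA gene for 11 and to a snoRNA gene for 1. Transfer RNA genes stand in clusters, and 21 of 290 (7.24%) had a member within 500 bp, against 259 of 13945 protein-coding genes (1.86%). These genes shared 11 members, which make up 0.836% of all members (0.467 to 1.49), against 0.394% of unsupported peaks (0.308 to 0.503) and 0.426% of optimal peaks (0.316 to 0.573). At scores of 60 and over the shares were 0.809% of members and 0.719% of unsupported peaks. Words of 31 bases found more than once in the genome were present at 8 of the 11, where reads may not map to a single place, and GAGAG at 1 of them.

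Members lay nearer to optimal peaks than unsupported peaks did, beyond the distance that the rule set. The sets differ in score, and these distances were not compared at matched scores. The median distance to the nearest optimal summit was 1584 bp in members and 1996 bp in unsupported peaks, and 440 members (33.4%, 30.9 to 36.0) lay between 500 and 1000 bp away, against 24.4% of unsupported peaks (23.8 to 25.1). A further 92 members lay between 10000 and 50000 bp away and 3 lay farther. The median distance between a member and the nearest other member was 9670 bp, and 133 members had another within 1000 bp. Of the 910 members inside the span of a protein-coding gene, 791 (86.9%, 84.6 to 88.96) lay in a span that also held an optimal summit, against 82.1% of unsupported peaks inside spans (81.4 to 82.8). At scores of 60 and over these shares were 88.3% (85.2 to 90.8) of members and 79.9% (77.8 to 81.8) of unsupported peaks.

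Among the large arms, member density was highest on X and lowest on 3R. There were 11.6 members per Mb on X, 10.4 on 3L, 10.2 on 2L, 9.49 on 2R and 8.38 on 3R, and 3 members on chromosome 4 (2.23 per Mb). Optimal peaks stood at 76.2, 81.7, 72.1, 78.7, 71.8 and 21.5 per Mb on the same arms. X held 20.7% of members and 17.7% of optimal peaks, a difference of 2.93 points (0.692 to 5.31). Words of 31 bases with more than 1 copy in the genome were present in 64 members (4.86%), 3.804% of unsupported and 2.43% of optimal peaks.

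The 15 members with the highest mean relative score are described singly. The member with the highest mean relative score lay in an intron of Hers, which encodes a repressor of histone genes, with relative scores of 0.941 in replicate 1, 1.43 in replicate 2 and 0.682 in replicate 3 (1.018 ± 0.380, SD, n = 3). In an intron of CadN, the neuronal cadherin, they were 0.860, 0.588 and 1.33 (0.925 ± 0.373). Upstream of lncRNA:CR45568 they were 0.897, 1.09 and 0.728 (0.905 ± 0.182). Replicate 2 was highest at Hers and at lncRNA:CR45568 and lowest at CadN, so no replicate led throughout. The intron of bi, a T-box transcription factor of wing and eye development, had the most even values of the 15, at 0.721, 0.760 and 0.766 (0.749 ± 0.0248).

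At lncRNA:CR43963, inside an intron of the corepressor gene Smr, replicate 1 reached 1.43 while replicates 2 and 3 were at 0.206 and 0.489 (0.708 ± 0.639). At lncRNA:CR44588, replicate 3 reached 1.54, against 0.557 and 0.352 in replicates 1 and 2 (0.815 ± 0.633). Both high means rest on a single replicate. The member in an intron of aop, an ETS-domain repressor in receptor tyrosine kinase signalling, had 0.301, 1.04 and 0.839 in replicates 1, 2 and 3. Its pooled score of 90.05 was just below the optimal list. The promoter of E(spl)m8-HLH, a basic helix-loop-helix repressor of the Notch pathway, had 0.829, 0.540 and 0.707 (0.692 ± 0.145, SD, n = 3). A member 100 bp from the start of bru2, an RNA-binding protein of the Bruno family, lay 18205 bp from the nearest optimal summit, and its scores were 0.455, 1.198 and 0.863.

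The rest of the 15 were nearest to Tsp42El, a tetraspanin, CtsF, a cathepsin, CG3655, CG33144, lncRNA:CR45404 and lncRNA:CR13130, the last of these lying in coding sequence of bib, and their mean relative scores ran from 0.702 to 0.844. Of the 15, 6 lay in promoters, 6 in introns, 2 in intergenic DNA and 1 in coding sequence, and 7 held GAGAG within 100 bp. The sequences printed for Hers, CadN and lncRNA:CR44588 each show 1 such word off the centre of the window. Those of lncRNA:CR45568, bi and E(spl)m8-HLH show none, although E(spl)m8-HLH has 1 further out. The ftz-f1 window, with 12 of the words, had relative scores of 0.2, 0.261 and 0.128 (0.197 ± 0.0666, SD, n = 3).

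A member lay within 1000 bp of a TSS of 455 of 13945 protein-coding genes (3.26%). An optimal summit did so for 4003 genes (28.7%), and 288 genes had both, which is 63.3% of the genes with a member. Among genes with an optimal summit 7.19% also had a member (6.43 to 8.04), against 1.68% of those without (1.44 to 1.95). The number with a member and no optimal summit was 167 (1.20%), which leaves 9775 genes with neither.

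Gene lists for pathways and tissues of the larva were described by counts beside those shares, with no test of the lists. Of 25 lists, 16 had a gene with a member and 9 had none. Ecdysone is the steroid hormone that starts metamorphosis, and 5 of 27 genes of its response had a member near a TSS (18.5%). These were EcR, the ecdysone receptor, br, Eip93F and Hr3, transcription factors induced by ecdysone, and Eip63E, a cyclin-dependent kinase. All 5 had an optimal summit too, as did 22 of the 27 genes, and among those 22 the share with a member was 22.7% (10.1 to 43.4). In the Wnt list, 3 of 24 genes had a member (12.5%), Axn, Wnt2 and pan, and in the blood cell list 3 of 21 (14.3%), Ppn, kn and srp. Of 91 developmental regulators repressed by Polycomb, 3 had one (3.30%), ac, ct and srp, which is at the share over all genes. However, 58 of the 91 had an optimal summit (63.7%, against 28.7% of all genes), ct and srp among them. Over all genes with an optimal summit 7.19% had a member.

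The other lists are given by their counts. Cytoplasmic ribosomal protein genes had a member in 4 of 85 cases (4.71%), RpL39, RpS15Aa, RpS28a and RpS4, and an optimal summit in 61. None of 73 mitochondrial ribosomal protein genes had a member, nor did any of 121 cuticle genes, 40 genes of neuronal function, 25 heat shock genes or 18 Notch pathway genes. In these lists 26, 3, 7, 15 and 14 genes had an optimal summit, in the same order. The other lists without a member were those of homeotic, Hedgehog, insulator and circadian clock genes. The Notch list holds components of the pathway and not its E(spl) target genes, so the member at E(spl)m8-HLH is not counted there. Of 230 chemosensory receptor and odorant-binding genes, 2 had one (0.870%), and of 40 proteasome genes 1 had one. Among genes of chromatin regulation, members stood near Su(z)2, 1 of 23 Polycomb group genes, and fs(1)h, 1 of 21 trithorax group genes. The BTB or Psq-domain list had bab1 and br, 2 of 18 (11.1%). Signalling genes with a member were S and aos of the EGFR list, babo of the Dpp and activin list and Rassf of the Hippo list, all with an optimal summit as well. Cdk4 and CycE, of 28 cell cycle genes, and Diap1, of 16 cell death genes, had both kinds of peak too, as did sns, 1 of 29 muscle genes.

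A member without an optimal summit within 1000 bp was found at 6 listed genes. At ac, a proneural transcription factor, the member (chrX:369826-370089) lay 73 bp from the start, 26036 bp from the nearest optimal summit, with relative scores of 0.319, 0.568 and 0.217 in replicates 1, 2 and 3. At Wnt2, a Wnt ligand (chr2R:9494175-9494240), it lay 38 bp from the start and 49929 bp from the nearest optimal summit, and the scores were 0.150, 0.234 and 0.294. At pan (chr4:69515-69778), the TCF transcription factor of Wnt signalling, they were 0.621, 0.123 and 0.586, so replicate 2 was far below the others. Rpn11, a deubiquitinating subunit of the proteasome (chr2L:5059686-5059949), had 0.421, 0.205 and 0.609. The peaks counted for kn, a transcription factor of the COE family, and Obp47b, an odorant-binding protein, lay 946 and 531 bp from their starts and nearer to those of hui and CG7741, with relative scores between 0.0874 and 0.192. Of the 6 peaks, those at ac and Wnt2 held GAGAG within 100 bp, once each.

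At the 8 homeotic genes, known targets of Polycomb and trithorax regulation, no member lay within 1000 bp of a TSS. Over all protein-coding genes the share with a member was 3.26%, so a list this short says little. An optimal summit lay within 1000 bp of a TSS for 4 of the 8, lab, Scr, Antp and Abd-B. The span of Antp held 5 members, all intronic, beside 15 optimal summits, and 3 of the 5 had GAGAG. The span of Ubx held 1 member and 1 optimal summit. The spans of lab, pb, Dfd, Scr, abd-A and Abd-B held no member, while those of Scr and Abd-B held 1 and 2 optimal summits. The gene psq itself held 1 intronic member beside 43 optimal summits, with a mean relative score of 0.475, and Trl, which encodes GAGA factor, held none beside 8.

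Some long genes held many members. These genes were picked for their counts, and 7.60% of all peaks over 500 bp from an optimal summit were members. The spans of kirre, an adhesion molecule of myoblast fusion, and Mur2B, a mucin-related gene, each held 11, beside 23 and 38 optimal summits. They also held 56 and 103 unsupported peaks, over 394149 and 145235 bp. The Mur2B span overlaps that of br, in which 7 members lay. The span of luna, a Krüppel-like transcription factor, held 9 members, more than its 6 optimal summits, and 63 unsupported peaks. Tet, a DNA dioxygenase of the TET family, EcR and bun, a growth regulator, each held 8, beside 49, 37 and 57 unsupported peaks. In the EcR span 5 of the 8 lay in promoters, of which 1 was nearest to a start of EcR itself and the others to starts of tRNA:Asn-GTT-1-3, tRNA:Asn-GTT-1-6, lncRNA:CR43904 and CG14589. In kirre, luna, Tet and bun between 7 and 9 lay in introns. Over all protein-coding genes, 641 spans held a member, 76 held 3 or more, and 130 held a member and no optimal summit.

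Peaks lay close to the limits of the rule on both sides. Adjacent scores at the border of the optimal list follow from the ranking that set it. The highest-scoring members lay at the promoters of mino (90.24) and Hers (90.21), and the lowest optimal peaks were intergenic ones nearest to Ssadh (90.29) and dally (90.33). Members at CG17574 and Sdb lay just over 500 bp from an optimal summit, and the peaks at CG16721 and CG3842, with summits in all 3 replicates, were left out at exactly 500 bp. There were 76 members over 500 and up to 550 bp from an optimal summit and 84 otherwise equal peaks over 450 and up to 500 bp away. The most distant replicate summit was at 100 bp for the members at CG17224 and Proc and just beyond it for the peaks left out at lncRNA:CR45369 and LRR. There were 202 members whose most distant replicate summit was over 90 and up to 100 bp away, and 167 other peaks with theirs over 100 and up to 110 bp away.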

How the data were processed

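The data are peak lists of 3 biological replicates, of all replicates pooled, and of the peaks that passed the IDR threshold, on genome build dm6. Per the deposited file listing, the authors called each list against a single control alignment, and the lists of replicates and of the pool, which keep background, were the input for IDR. Which aligner and peak caller were used is not given in the sources used here. Each peak carries a score and a −log10 q value (a p-value corrected for many tests), both deposited by the authors. Summits (1-based) come from the other deposited column used, each peak's summit offset. The scores of different lists are on different scales, so relative scores were used across replicates, and both depend on depth, which is unknown.

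Arms 2L, 2R, 3L, 3R, 4 and X were used, and 37 mitochondrial peaks of the pooled list were left out. Annotation was Ensembl release 115 without transposable elements (18164 genes, 23584 distinct TSSs). Each summit took the first class that applied, promoters before exon parts (5′ UTR, coding, 3′ UTR, then other), introns and intergenic DNA. Words were counted on both strands within 100 bp of the summit. Shares have 95% Wilson intervals and differences Newcombe intervals (a normal approximation where weighted over score bins). The code ran in Python 3.11.15 with numpy 2.4.6, pandas 2.3.3 and scipy 1.17.1 and was checked on simulated peaks. The lists for dm3 were not used.

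Members, words and gene lists were chosen with earlier results of these data known. Of 534 list entries, 29 were matched through a synonym and 13 had no match. The genes named are those nearest to the 15 members with the highest mean relative score, up to 3 genes per list with a member and no optimal summit, the homeotic genes, psq and Trl, the genes with most members and the members nearest to the limits of the rule. Other list genes with a member are named because their counts are small. Sequences on 1 arm, those with more than 30 bases of a UTR and some further ones without GAGAG are not shown.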

Additional observations from a re-analysis of the deposited data

How the results depend on the processing

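The number of members depended on the rule. Requiring 2 replicates instead of 3 gave 2452 to 3029 members, depending on the replicate left out, with 4.85% to 5.55% in coding sequence and 301 to 384 genes with a member and no optimal peak, against 167. A shared distance of 50 bp gave 466 members (GAGAG 36.5%, 71 such genes, GAGAG difference from unsupported peaks 10.7 points), and 200 bp gave 2928 (360 such genes). Keeping 1000 bp from optimal summits gave 876 members, and 250 bp put 27.7% in promoters and 18.6% in intergenic DNA, with a promoter difference of 9.19 points. The higher-scoring 658 members had 24.8% in promoters and 97 such genes, their GAGAG difference was 3.92 points, and their promoter difference reversed to −2.07. With both sets at scores of 60 and over these were 3.66 and −1.46, and within 8 score bins 3.21 and −0.785. Windows with no soft-masked base or repeated word left 303 members, with 19.8% in promoters, 44.2% in introns, 7.59% in coding sequence, 25.4% in intergenic DNA, 46 such genes and a promoter difference of 0.787. GAGAG was in 19.0% with 50 bp to each side and 54.0% with 250 bp, and GAGAGAGA was in 4.18%, 2.18 points above unsupported peaks. Promoters held 16.0% at 200 bp and 18.2% with protein-coding starts only. Of 100 alternative values, the other 60 stayed within the main interval or within 1.5 times the count. The differences from unsupported peaks, the score limit of 60 and the score bins were added after the data were seen. No paired analysis was possible because the replicates form 1 group. Depth is unknown, so a peak missing from a list is only a missing call.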
